A study of Homo sapiens with 5 samples.

Results

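A set of 35 genes that ATF4 is known to act on or with was followed across the treatments: 8 regulators of the stress response, 10 enzymes of amino acid and folate metabolism, 5 amino acid carriers and 12 cytosolic tRNA synthetases. The genes were chosen by name, with earlier results of these data known, and all 35 were found among 35453 gene names. Ratios were taken for the 34 whose mean over the 5 libraries was at least 20 scaled counts, as they were for 14585 genes in all, and PHGDH, the remaining member, is described with the enzymes. A scaled count is the estimated read count of a gene, summed over its transcripts and brought to a common library size. Log2 ratios were taken after adding 1 scaled count. Brackets after a fold give its 95% interval, which is exact (Clopper-Pearson) and covers counting error only. The RNA came from KGN, an established human line from a granulosa cell tumour, treated over 24 h. Medium with charcoal-stripped serum and 100 nmol/L of androstenedione, the substrate of aromatase, was shared by all groups. The control had ethanol per the written protocol and no treatment per its title. Of the treatments, follicle-stimulating hormone (FSH) was given at 100 ng/mL. Forskolin (FSK) activates adenylate cyclase and so protein kinase A. SC79, at 4 µg/mL, activates AKT (PKB), and the phorbol ester PMA activates protein kinase C. The numbers for FSK and PMA are 10 and 0.1, with mmol per litre in the treatment labels and a micro sign in the protocol. Each group had 1 library, pooled from 3 cultures grown in different weeks, so no difference here has a replicate check and no p-value was computed.

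ATF4 is a transcription factor of the integrated stress response. Its own mRNA is translated better when kinases that sense missing amino acids, unfolded protein or viral RNA phosphorylate the initiation factor eIF2, so its activity is set largely after transcription. In the nucleus ATF4 pairs with C/EBP factors and raises genes that make, import and charge amino acids, so that the group supplies material for protein synthesis. Serine made by PHGDH, PSAT1 and PSPH also feeds the mitochondrial folate enzymes SHMT2 and MTHFD2, which provide carbon for nucleotide synthesis.

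ATF4 and C/EBP factors bind a composite element whose core reads TGATGNAA, the CARE. Promoter windows of 300 bases (250 before to 50 after a gene start, RefSeq, GRCh38.p14) were found for 30 members, and PSPH, SHMT2, PYCR1, LARS and YARS had none in the table. Searched on both strands, the core was found in 12 of these 30 genes, against 4.46% of all genes with a window. By window, 12 of 49 member windows held it (24.5%), against 3.62% of 35116 promoter windows of all genes. The members were chosen as genes that ATF4 is known to act on or with, so this excess is not independent of the choice. The 12 matches are shown with 11 bases on each side where the window reaches, because they are the sequence that most of the set's synthetase genes have in common. Capitals mark the match, and each is written 5′ to 3′ along the gene's own strand, so TTGCATCA is the core TGATGCAA on the opposite strand.
ASNS: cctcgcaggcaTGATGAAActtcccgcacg
CHAC1: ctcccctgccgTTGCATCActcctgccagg
SLC3A2: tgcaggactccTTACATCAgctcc
SLC7A1: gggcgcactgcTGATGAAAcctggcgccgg
SLC1A5: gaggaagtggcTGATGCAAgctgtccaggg
AARS: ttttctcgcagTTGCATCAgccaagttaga
CARS: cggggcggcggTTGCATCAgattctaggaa
GARS: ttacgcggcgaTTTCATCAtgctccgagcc
IARS: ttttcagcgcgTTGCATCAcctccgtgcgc
MARS: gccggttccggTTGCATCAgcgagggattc
NARS: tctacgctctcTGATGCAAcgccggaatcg
TARS: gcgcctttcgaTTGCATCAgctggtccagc
The windows lie at chr7:97872458-97872487 for ASNS and chr15:40953251-40953280 for CHAC1, at chr11:62881725-62881748, chr13:29595663-29595692 and chr19:46784893-46784922 for the carriers, and at chr16:70289675-70289704, chr11:3057407-3057436, chr7:30594834-30594863, chr9:92293692-92293721, chr12:57488053-57488082, chr18:57621804-57621833 and chr5:33440956-33440985 for the synthetases in the order shown. Those of ASNS, SLC7A1, SLC1A5, AARS, CARS, IARS and NARS are on the minus strand and the other 5 on the plus strand. In GENCODE 29, whose gene spans run from the farthest transcript start, 10 of the 12 lie inside their own gene's span, that of SLC7A1 crosses the start and that of AARS lies upstream. Of the 10 synthetase members with a promoter, 7 held the core, and 6 of these 7 held it as TGATGCAA, read on either strand, GARS being the exception.

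**Figure D1:**
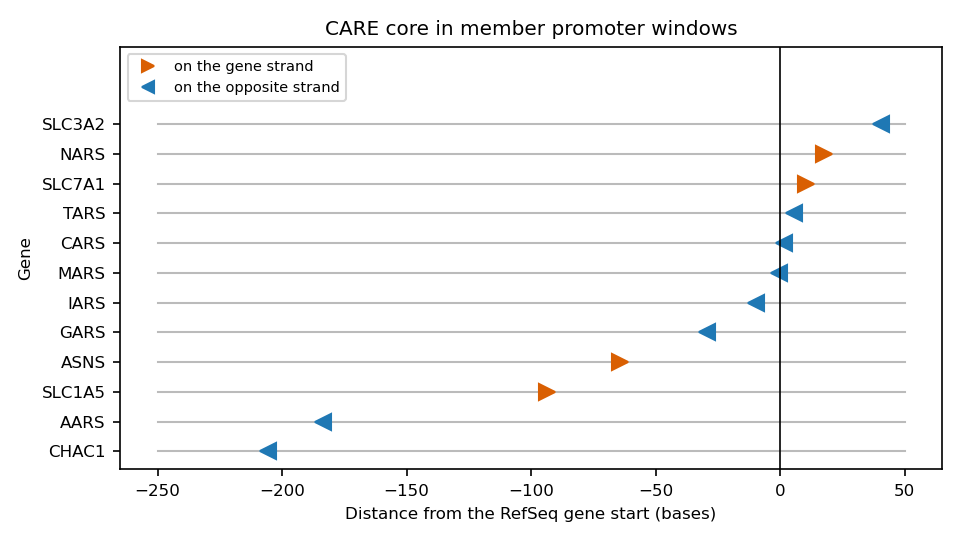
Position of the CARE core in the 12 member promoter windows that hold it, as distance in bases from the RefSeq gene start (x axis) for each gene (y axis). Arrowheads mark the strand of the core; the matches of CARS and MARS begin at -2 and -4, close to the start, and that of CHAC1 at -209, the farthest from it.

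The other motifs searched were the cAMP response element TGACGTCA, the AP-1 element TGANTCA and the E-box CACGTG, on both strands. The cAMP response element was found in 0 of the 30 genes and in 2.25% of all genes with a window. AP-1 letters stood in 3 of the 30 (ATF5, DDIT3 and SLC3A2; 9.37% of all genes with a window) and the E-box in 5 of the 30 (ATF4, ALDH18A1, SLC7A5, SLC1A5 and IARS; 8.77% of all genes with a window). By window, AP-1 letters were in 8.16% of member windows and 7.71% of all, the E-box in 12.2% and 7.26%, and the cAMP response element in 0% and 1.85%. A match describes letters in the window and no binding was measured.

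Library totals ran from 50218703 to 58811603 estimated counts. All 8 granulosa markers were measured, but at very different levels. In control they ran from INHA at 61.5, FSHR at 92.7 and AMHR2 at 98.2 to FOXL2 at 9976 scaled counts, and FOXL2 had 5458 with PMA. The sum of the 8 ran from 18560.5 in control to 58719 with FSK, where CYP19A1 led. The 4 immune markers summed to 841 to 2226, highest with PMA through CD68, with CD3E at 0 in all libraries; the 4 endothelial markers ran from 303 to 992, also highest with PMA. Oocyte markers stayed between 30.5 and 45, epithelial ones between 6405 and 8942, and theca and stroma ones, mostly COL1A2 and PDGFRA, between 115711 and 158777, lowest with PMA. The part of these differences in the results was not tested. In pooled cells, fewer cells expressing a gene and less RNA per cell cannot be told apart.

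Across the set, both FSK and PMA went with lower amounts of most members. The enzymes were lowest with PMA, at a median log2 ratio of -0.93, whereas 6 of 8 regulators were above control there with the scaling used here. Nearly all members were close to control with FSH and SC79. With FSK, 27 of 34 members lay below control (48.5% of all genes), with a median log2 ratio of -0.40 against 0.01 over all genes compared. Of these 34, 4 were at least 2-fold lower (PSAT1, ASNS, CHAC1 and MTHFD2; 5.77% of all genes) and 2 at least 2-fold higher (CEBPB and DDIT4; 4.66% of all genes). DDIT4 sat at the edge of 2-fold, and only CEBPB passed when library totals, the authors' constants, protein-coding transcripts alone, or the FSH or SC79 library as reference were used. At 1.5-fold, 9 members were lower (11.6%) and 3 higher (10.2%). With PMA, 26 of 34 were below control (50.5% of all genes), at a median of -0.26 against -0.0043 over all genes. PYCR1, PSAT1 and CBS were at least 2-fold lower with PMA (3 members; 4.4% of all genes), and CEBPB alone was at least 2-fold higher (4.09%). With the FSH library as reference PYCR1 alone passed 2-fold lower, and under the authors' constants 6 did. At 1.5-fold, 7 were lower (10.5%) and 1 higher (9.37%). The treatments share 1 control library, so their ratios are set side by side and not correlated.

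**Figure D2:**
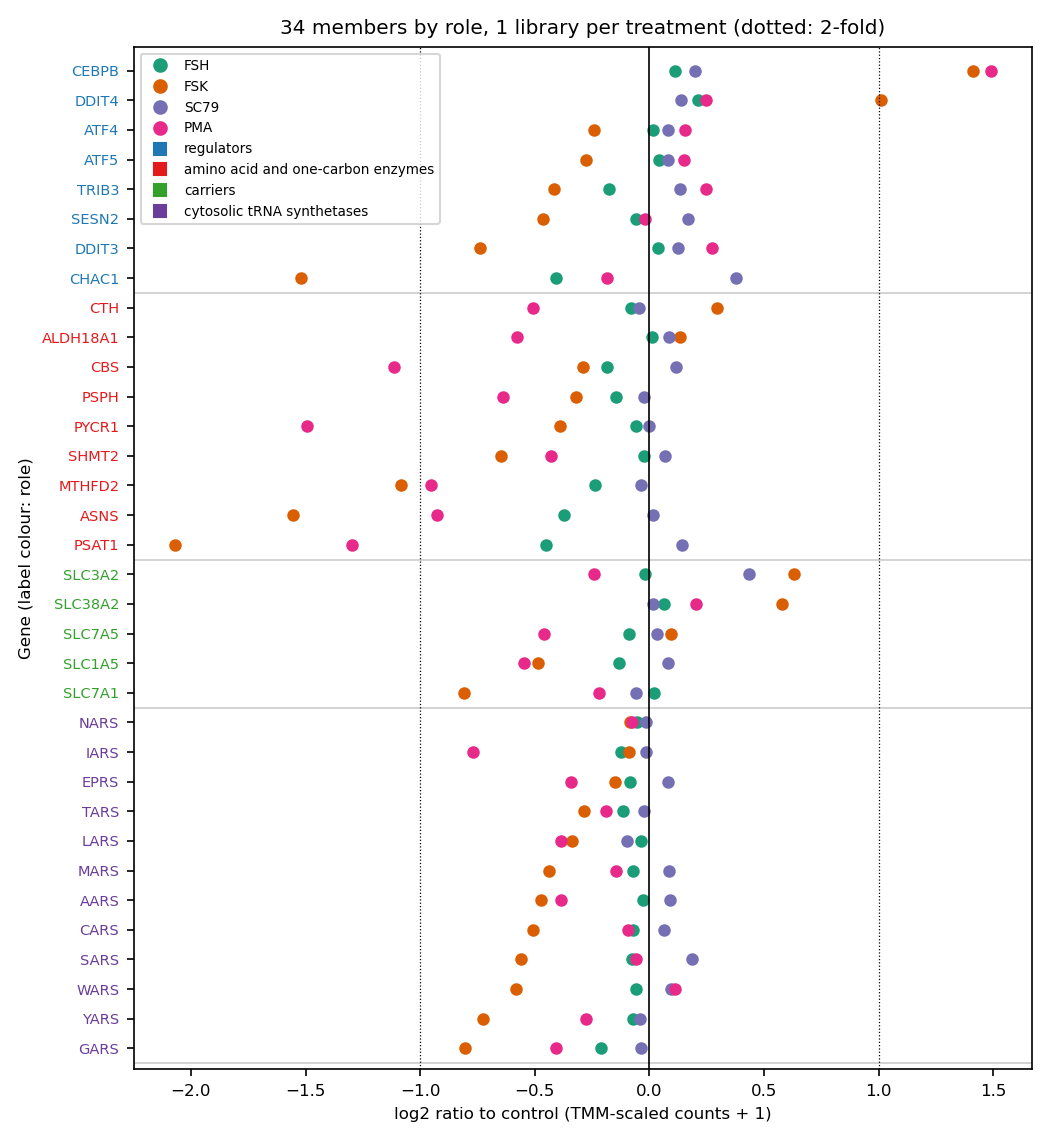
Log2 ratio to control of TMM-scaled counts plus 1 (x axis) for the 34 members with a ratio (y axis, label colour for role), 1 point per treatment and 1 library behind each point; dotted lines mark 2-fold. FSK points lie left of 0 for 27 genes, and the enzyme block holds the lowest points, PSAT1 at -2.07 with FSK and PYCR1 at -1.49 with PMA.

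With FSH, 26 of 34 members were below control (52.8% of all genes) but by little, at a median of -0.07 against -0.01. No member reached 1.5-fold in either direction (1.28% of all genes lower and 2.14% higher). At 1.2-fold, a threshold chosen after the values were seen, 3 were lower, PSAT1, CHAC1 and ASNS (5.55% of all genes), and 0 higher (7.12%). The counting interval included no difference for 11 of the 34 with FSH, 14 with SC79, 1 with FSK and 2 with PMA. The share over all genes was not computed, and the width of an interval depends on the gene's count. With SC79 the median was 0.08 against -0.01 over all genes, with 11 of 34 below control (51.5% of all genes). Under the authors' constants, which move the median of all genes to -0.28, the members' median was -0.19. No member reached 1.5-fold with SC79 (1.57% of all genes lower and 2.17% higher). SLC3A2 and CHAC1 were the 2 at least 1.2-fold higher with SC79 (7.95% of all genes), and 0 were that much lower (7.62%).

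ATF4 itself (ENSG00000128272, chromosome 22, 39519695 to 39522685 on GRCh38, as are all gene positions here) had 10376 scaled counts in control, 10480.1 with FSH, 10977 with SC79, 8777 with FSK and 11553 with PMA. The range was narrow, with FSK lowest at a log2 ratio of -0.24 and PMA highest at 0.16. The scaling matters for the sign here. Under the authors' constants the median of all genes lies at -0.24 with PMA, farther from 0 than the ratio of ATF4 there. Then 4 of 8 regulators are above control with PMA and 1 of 8 with SC79, against 6 and 8 with the scaling used here. Counted from the median of all genes, 6 of 8 lie above it with PMA and 8 of 8 with SC79. This count does not bear on the choice of scaling, since a scaling moves all genes of a library nearly alike. ATF4 protein was not measured, and 70.3% of the 31-base words of its transcripts are found in no other gene. DDIT3 (ENSG00000175197, chromosome 12, 57516588 to 57521737), the CHOP factor that ATF4 raises under lasting stress, had 935 scaled counts in control, 961 with FSH, 1021 with SC79, 559.6 with FSK and 1132 with PMA. It was lowest with FSK, 0.599-fold of control [0.538 to 0.665], and highest with PMA, and the 2 libraries differed directly by 1.02 on the log2 scale. DDIT3 overlaps the end of the MARS span and shares sequence with it, and 76.5% of its 31-base words are found in no other gene. CHAC1 (ENSG00000128965, chromosome 15, 40952962 to 40956519), which degrades glutathione and is a sensitive ATF4 target, had 452 scaled counts in control, 341 with FSH, 588 with SC79, 157 with FSK and 398 with PMA. CHAC1 with FSK was 0.349-fold of control [0.287 to 0.418], the lowest regulator, and SC79 gave the highest library at 1.3-fold of control [1.15 to 1.47]. With PMA its interval of 0.77 to 1.01-fold included no difference.

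ATF5, a related factor, TRIB3, a pseudokinase that holds back ATF4 and AKT, and SESN2, a leucine sensor that restrains mTORC1, followed the same order between FSK and PMA. Their log2 ratios with FSK were -0.27, -0.42 and -0.46, and with PMA 0.15, 0.25 and -0.02. Of the 8 regulators, 6 were below control with FSK (median -0.35) and 6 above it with PMA (median 0.20). The exceptions with FSK were DDIT4 and CEBPB. DDIT4 (ENSG00000168209, chromosome 10, 72273920 to 72276036), an mTORC1 inhibitor also driven by hypoxia and glucocorticoids, had 12703 scaled counts in control, 14725 with FSH, 13976 with SC79, 25581 with FSK and 15099 with PMA. It was 2.01-fold of control [1.97 to 2.06] with FSK and at most 0.25 on the log2 scale in the other libraries. CEBPB (ENSG00000172216, chromosome 20, 50190734 to 50192689), a C/EBP factor that pairs with ATF4 and is also a cAMP and hormone-responsive factor of granulosa cells, had 4095 scaled counts in control, 4419.9 with FSH, 4699 with SC79, 10908 with FSK and 11514 with PMA. The FSK and PMA libraries were high by like amounts, 2.66-fold of control [2.57 to 2.76] and 2.81-fold of control [2.72 to 2.91], and the FSH and SC79 libraries were near control.

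The first enzyme of serine synthesis, PHGDH (ENSG00000092621, chromosome 1, 119648411 to 119744226), was almost absent by the rows that carry its name, with 11.4 scaled counts in control, 24.9 with FSH, 23.2 with SC79, 18.3 with FSK and 21.3 with PMA, a mean under the minimum of 20. Those rows hold only minor transcripts. The main coding transcript, ENST00000369409, has no gene name in the deposited tables, and it and 3 minor transcripts, also without a name, were assigned to PHGDH by their identifiers in GENCODE 29, a step added after the values were seen. With them PHGDH had 5961 scaled counts in control, 5017 with FSH, 5969.9 with SC79, 1593 with FSK and 1692 with PMA. That level was 0.267-fold of control [0.253 to 0.283] with FSK and 0.284-fold of control [0.269 to 0.299] with PMA, while FSH stood at -0.25 and SC79 at 0.0023 on the log2 scale. Counted this way PHGDH brings the members at least 2-fold lower to 5 with FSK and 4 with PMA.

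PSAT1 (ENSG00000135069, chromosome 9, 78297143 to 78330093), the aminotransferase of the next step, had 4455 scaled counts in control, 3263 with FSH, 4911 with SC79, 1059.6 with FSK and 1814 with PMA. It was the lowest member with FSK at 0.238-fold of control [0.222 to 0.255], and PMA and FSH were lower than control too, at 0.407-fold of control [0.386 to 0.43] and 0.733-fold of control [0.701 to 0.766]. PSPH, the phosphatase that ends the route, had smaller ratios of -0.32 with FSK and -0.64 with PMA. ASNS (ENSG00000070669, chromosome 7, 97852118 to 97872542), asparagine synthetase, had 1598 scaled counts in control, 1233 with FSH, 1613 with SC79, 544 with FSK and 839.7 with PMA. With FSK it was 0.341-fold of control [0.308 to 0.376], with PMA 0.526-fold of control [0.483 to 0.571] and with FSH 0.772-fold of control [0.717 to 0.83], and control and SC79 did not differ beyond counting error. FSK was thus below PMA for both PSAT1 and ASNS, with direct log2 ratios of PMA to FSK of 0.78 and 0.63.

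MTHFD2 and SHMT2, which work in mitochondrial folate metabolism, were lower with both compounds. MTHFD2 (ENSG00000065911, chromosome 2, 74198562 to 74217565) had 7717 scaled counts in control, 6556 with FSH, 7521 with SC79, 3636 with FSK and 3991 with PMA. Its level was 0.471-fold of control [0.453 to 0.49] with FSK and 0.517-fold of control [0.498 to 0.537] with PMA, and 61.1% of its 31-base words are found in no other gene, SLC4A5 being the gene that shares most. SHMT2 (ENSG00000182199, chromosome 12, 57229327 to 57234935), which splits serine into glycine, had 9911 scaled counts in control, 9748 with FSH, 10397 with SC79, 6332 with FSK and 7353 with PMA. SHMT2 was 0.639-fold of control [0.619 to 0.659] with FSK and 0.742-fold of control [0.72 to 0.764] with PMA. Per kilobase of transcript in control, SHMT2 at 6184 and MTHFD2 at 3961 scaled counts stood above PHGDH with all its transcripts at 3212, PSAT1 at 2062, PSPH at 1282 and ASNS at 846.

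**Figure D3:**
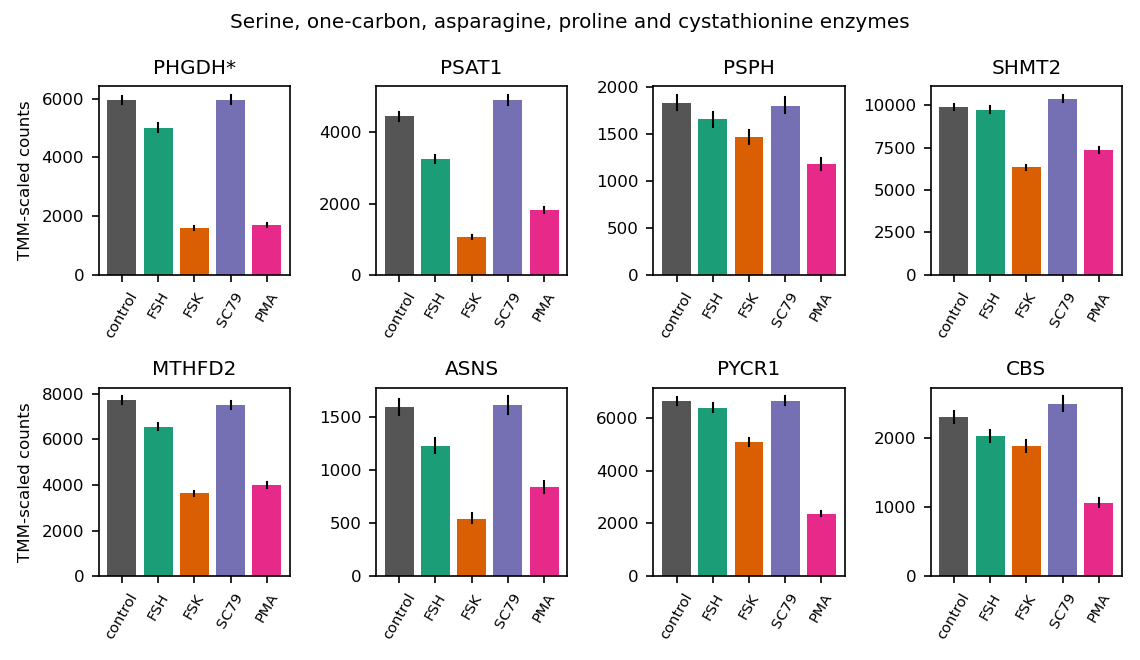
TMM-scaled counts (y axis, from 0) of 8 enzyme genes in the 5 libraries (x axis), 1 library per bar; black lines are exact Poisson 95% intervals that cover counting error only. PHGDH* includes the rows without a gene name; it, PSAT1, ASNS and MTHFD2 are low with both FSK and PMA, whereas PYCR1 and CBS are lowest with PMA.

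Proline and transsulfuration enzymes differed mainly with PMA. PYCR1 (ENSG00000183010, chromosome 17, 81932384 to 81942412), the last step of proline synthesis, had 6642 scaled counts in control, 6379 with FSH, 6634 with SC79, 5074 with FSK and 2358 with PMA. It was 0.355-fold of control [0.339 to 0.372] with PMA, the lowest member there, against 0.764-fold of control [0.737 to 0.792] with FSK. ALDH18A1, the step before it, had log2 ratios of -0.58 with PMA and 0.14 with FSK. CBS (ENSG00000160200, chromosome 21, 43053191 to 43076943), which makes cystathionine from serine and homocysteine, had 2299.8 scaled counts in control, 2023 with FSH, 2492 with SC79, 1882 with FSK and 1062 with PMA. CBS with PMA was 0.462-fold of control [0.429 to 0.496]. Only 43.7% of its 31-base words are found in no other gene, and it has a near-identical copy, CBSL. CBSL had at most 25.8 scaled counts and the sum of both gave -1.10. CTH, which cleaves cystathionine to cysteine, had 165 scaled counts in control, 156 with FSH, 160.2 with SC79, 203 with FSK and 116 with PMA. CTH was the highest enzyme with FSK at 0.30, where its interval of 0.997 to 1.51-fold included no difference, and -0.51 with PMA. All 9 compared enzymes were below control with PMA (median -0.93) and 7 of 9 with FSK (median -0.39, mean -0.66).

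**Figure D4:**
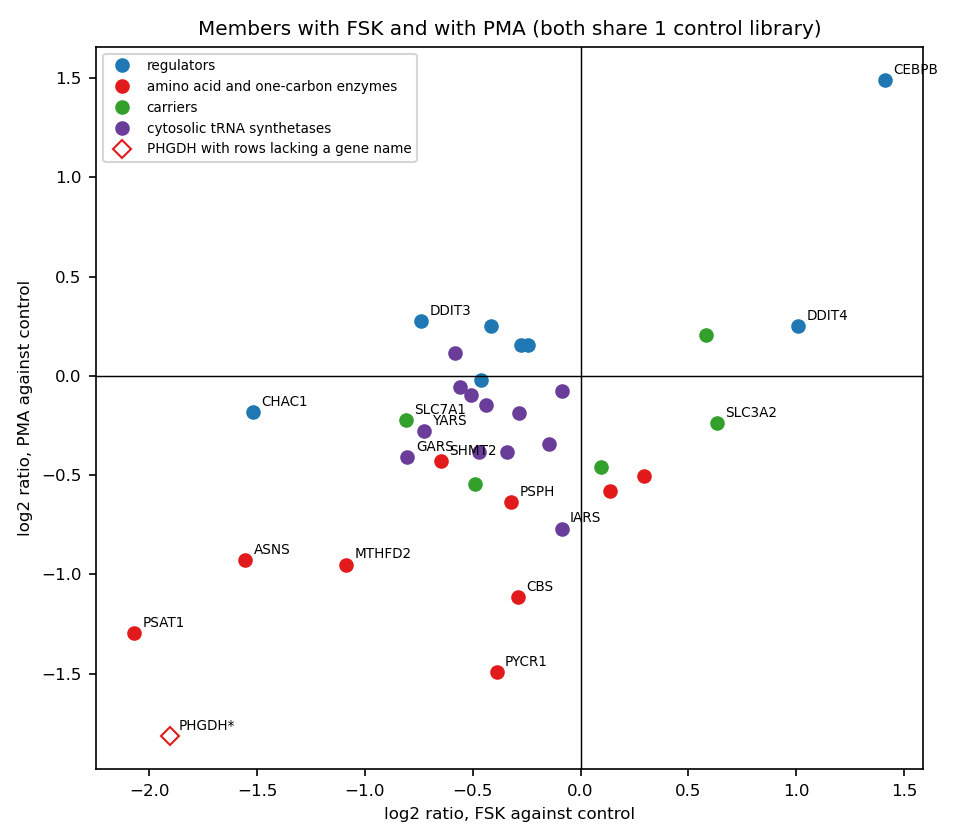
Log2 ratio to control with FSK (x axis) and with PMA (y axis) for the 34 members, coloured by role, plus PHGDH counted with its rows that lack a gene name (open diamond). ASNS, MTHFD2 and PSAT1 are low on both axes, PYCR1 and CBS are low mainly on the y axis, CHAC1 and DDIT3 on the x axis, and CEBPB is high on both; both axes use the same control library.

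Set directly against each other, PMA and FSK gave medians that differed by role, but each role held members on both sides of 0. The median log2 ratio of PMA to FSK was 0.44 for the regulators, 0.19 for the synthetases, -0.32 for the enzymes and -0.38 for the carriers, beside -0.0031 over all genes. The enzymes were split, 4 above and 5 below 0, from PYCR1 at -1.11 to PSAT1 at 0.78. Synthetases ran from IARS at -0.68 to WARS at 0.69, and carriers from SLC3A2 at -0.87 to SLC7A1 at 0.59. CHAC1 and DDIT3 were at least 2-fold higher with PMA (6.27% of all genes), and PYCR1 was at least 2-fold lower (5.75%). The intervals of LARS and NARS included no difference.

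The carriers did not move as a block. SLC3A2 (ENSG00000168003, chromosome 11, 62856102 to 62888875), the heavy chain shared by several exchangers, had 6023 scaled counts in control, 5938 with FSH, 8136 with SC79, 9328 with FSK and 5099 with PMA. FSK and SC79 were above control, at 1.55-fold of control [1.5 to 1.6] and 1.35-fold of control [1.31 to 1.4], and PMA was below it. SLC7A5 (ENSG00000103257, chromosome 16, 87830023 to 87869488), its light chain for leucine and other large neutral amino acids, had 9432 scaled counts in control, 8863 with FSH, 9655 with SC79, 10059 with FSK and 6862 with PMA. The highest and lowest were FSK and PMA, with 0.728-fold of control [0.706 to 0.75] in the latter, while the FSK difference of 0.09 in log2 is smaller in size than the -0.16 at which the authors' constants put the median of all genes. SLC7A1, the cationic amino acid carrier, had 6561 scaled counts in control, 6659 with FSH, 6298 with SC79, 3744 with FSK and 5626 with PMA, and only FSK stood well below control at 0.571-fold of control [0.548 to 0.594]. SLC1A5, the glutamine carrier, had 10726 scaled counts in control, 9785 with FSH, 11355 with SC79, 7652 with FSK and 7340.3 with PMA, low with both FSK and PMA. SLC38A2, a carrier of small neutral amino acids and the most abundant carrier per kilobase, had 42617 scaled counts in control, 44581 with FSH, 43034 with SC79, 63745 with FSK and 49146 with PMA, and was highest with FSK at 1.496-fold of control.

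All 12 synthetase members were below control with FSK, with a median of -0.45 and none at 2-fold. GARS (ENSG00000106105, chromosome 7, 30594681 to 30634033), glycyl-tRNA synthetase, had 10503 scaled counts in control, 9087 with FSH, 10239 with SC79, 6022 with FSK and 7907 with PMA. At 0.573-fold of control [0.555 to 0.592] it was the lowest of them, with YARS (tyrosine) next at -0.72, while NARS, for asparagine, had 8502 scaled counts in control, 8191 with FSH, 8419 with SC79, 8016 with FSK and 8066 with PMA and was nearest to control at -0.08. IARS (ENSG00000196305, chromosome 9, 92210207 to 92293756), for isoleucine, had 21132 scaled counts in control, 19399 with FSH, 20907 with SC79, 19887 with FSK and 12389.9 with PMA. IARS was as near to control with FSK at -0.09 and 0.586-fold of control [0.574 to 0.599] with PMA, the lowest synthetase there. WARS, for tryptophan and also induced by interferon, had 7374 scaled counts in control, 7075 with FSH, 7874 with SC79, 4929 with FSK and 7976 with PMA and was the highest with PMA at 0.11. AARS, CARS, LARS, MARS, SARS, TARS and EPRS, for alanine, cysteine, leucine, methionine, serine, threonine, and glutamate with proline, ranged from -0.56 (SARS) to -0.15 (EPRS) with FSK and from -0.39 (AARS) to -0.06 (SARS) with PMA. With PMA 11 of 12 were below control, at a median of -0.23. FSH also gave 12 of 12 below control, but by at most -0.21 in log2 (GARS), with a median of -0.07, and SC79 gave 6 of 12.

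Lists of synthetase genes outside the set had medians nearer to control with FSK, though single genes overlapped with the members. The other cytosolic list, 8 synthetase genes and the 3 scaffold genes AIMP1, AIMP2 and EEF1E1, had a median of -0.12, with 7 of 11 below 0, from FARSB at -0.58 and VARS at -0.43 to QARS at 0.14 and FARSA at 0.17. The 17 mitochondrial synthetases had a median of -0.01, with 9 below 0. Among them LARS2 was at -0.41, and SARS2 and PARS2 were highest at 0.12 and 0.16. With PMA these medians were -0.04, from FARSB at -0.38 and KARS at -0.30 to FARSA at 0.13 and HARS at 0.19, and -0.08, from WARS2 at -0.72 and AARS2 at -0.49 to VARS2 at 0.09 and IARS2 at 0.18. The difference between the lists was not tested, and the members and lists were chosen with earlier results of these data known. The row of MARS2 carries a date in place of its name in the count table and was found by its description.

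**Figure D5:**
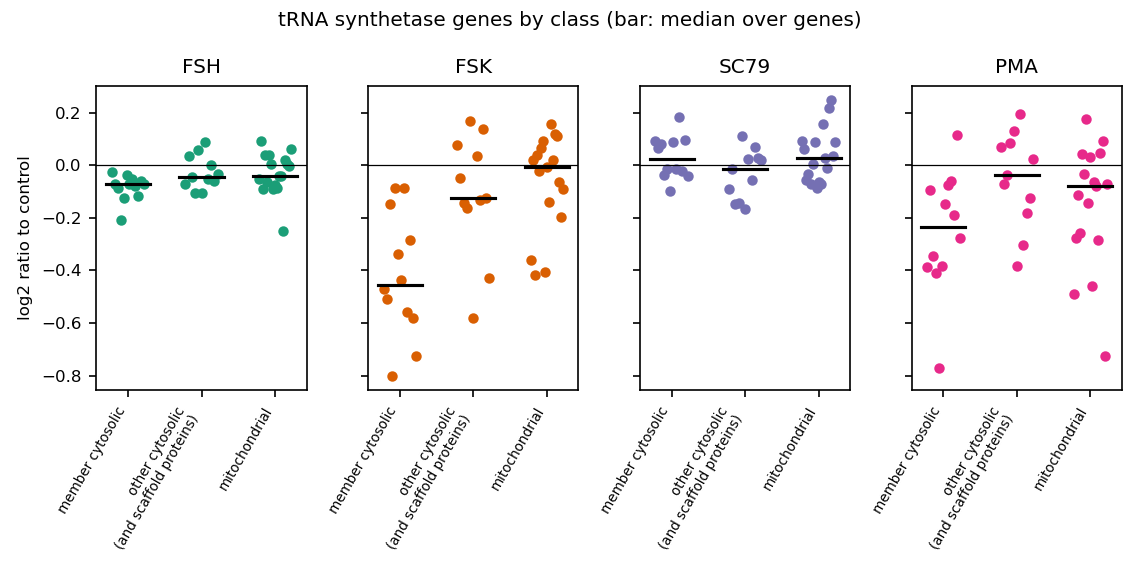
Log2 ratio to control (y axis) of tRNA synthetase genes in 3 classes (x axis), 1 panel per treatment; each point is a gene from 1 library pair and the bar is the median over genes. With FSK the member class has a median of -0.45, the other cytosolic class -0.12 and the mitochondrial class -0.01, while with FSH and SC79 the 3 classes lie close to 0.

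The 12 members whose promoter window holds the CARE core had median log2 ratios of -0.48 with FSK and -0.23 with PMA. The 17 compared members with a window but no core had -0.27 and -0.02. Both groups were broad, from -1.55 (ASNS) to 0.63 (SLC3A2) and from -2.07 (PSAT1) to 1.41 (CEBPB) with FSK. They also differed in role, since 7 of the 12 were synthetases and CHAC1 was the only regulator among the 12. PHGDH has a window without the core and is not among the 17. Counted with its rows that lack a name, it stood at -1.90 with FSK and -1.82 with PMA. The difference between the groups was not tested.

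Other genes of the response were read from lists. Sensors and feedback genes, among them the eIF2 kinases EIF2AK1 to EIF2AK4, lay close to control, with a median of 0.03 with FSK and -0.08 with PMA over 14 genes. PPP1R15A (GADD34), the stress-induced phosphatase subunit that reverses eIF2 phosphorylation, lay farthest from control, at -0.92 with FSK and 0.71 with PMA, and EIF2AK3 (PERK) went the other way at 0.45 and -0.47. EIF2AK4 (GCN2) was at -0.33 and NCK1 at 0.35 with FSK, and GCN1 at -0.22 and EIF2B2 at 0.28 with PMA.

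Of 27 compared other genes that ATF4 is known to regulate, 4 were at least 2-fold lower with FSK (5.77% of all genes) and 2 higher (4.66%), at a median of -0.04. ADM2, a secreted peptide, and PCK2, mitochondrial PEP carboxykinase, were lowest at -2.04 and -1.49. SLC7A11, the cystine carrier that pairs with SLC3A2, and MTHFD1L, a mitochondrial folate enzyme, were highest at 1.68 and 1.496. With PMA 2 were at least 2-fold lower (4.4% of all genes), SLC7A11 at -1.16 and ALDH1L2, another mitochondrial folate enzyme, at -1.14, and 1 higher (4.09%), VEGFA at 1.81, followed by SLC43A1 at 0.504. With FSH, ADM2 was the lowest of this list at -0.996, from 145 scaled counts in control to 72.3. With SC79, SLC7A11 was the highest of the list at 0.93, from 6764 scaled counts in control to 12917.

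Amino acid and folate enzymes outside the set had medians of -0.22 with FSK and -0.25 with PMA over 24 genes. The lowest with FSK was TYMS, thymidylate synthase, at -2.99, and the highest were GLDC and ASS1 at 0.89 and 0.66. With PMA TYMS and AHCY were at -1.01 and -0.83, and ARG2 and GLDC at 0.98 and 0.94. Among 14 MYC and mTORC1 regulators, MYC was lowest with FSK at -0.58, then SESN1 at -0.38, with CASTOR1 and DEPTOR highest at 0.52 and 0.48. With PMA the relatives of SESN2 stood apart from it, SESN3 at -1.77 and SESN1 at -1.10, while RHEB and MTOR were highest at 0.22 and 0.18.

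Within genes, the estimated counts were spread over transcripts in ways that differed between libraries for a few members. For CHAC1, ENST00000617768 held 90.8% of the gene's counts in control and 7.15% with FSK, where ENST00000617961 held 65.3%. The authors' deposited table gives the former transcript a log2 fold change of -5.18 with FSK (adjusted p = 0.00756, from edgeR per the submitters' notes), larger than the -1.52 of the gene as a whole. It was the only main transcript of the 35 members with an adjusted p under 0.05 in the authors' deposited table for FSH, FSK, SC79 or PMA. The share of all transcripts under that threshold was not computed. Whether so few among the members is usual therefore cannot be told. For CBS, ENST00000398165 held 59.6% in control and 36.6% with FSK, and ENST00000398158 14.5% and 35.6%. For MTHFD2, ENST00000470592, annotated as a target of nonsense-mediated decay, held between 31.2% (control) and 33.4% (SC79). Protein-coding transcripts held 96.1% of ASNS counts in control and 87.6% with FSK, and 94.3% and 84.9% for DDIT3. How reads were divided among overlapping transcripts adds error that the intervals do not cover.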

How the data were processed

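RNA-seq libraries of 5 groups, 1 each, were used. Per the labels, each was made from 270 ng of RNA pooled from 3 cultures, 90 ng per culture. The authors deposited estimated counts per transcript, made with kallisto after Trimmomatic per the submitters' processing notes, which give no versions. What build and index they used is not given in the sources used here. Among 179973 transcripts, 89.6% match GENCODE 29 by identifier and version, and gene positions are from that release. The authors also deposited a normalized signal, which is the estimated counts times 1 constant per library (0.934 to 1.03). The authors deposited log2 fold changes against control for each transcript, computed with edgeR per the submitters' processing notes. The authors deposited with each fold change its p-value, raw and adjusted, without stating how dispersion was set for 1 library per group.

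Counts were summed by gene name and scaled by TMM (edgeR 4.0.16, R 4.3.3). Rows without a gene name, 303 transcripts with 0.0535% to 0.068% of counts, stayed out except as stated for PHGDH. Genes averaging at least 20 scaled counts across the 5 libraries were compared as log2 ratios with 1 added. With 1 library per group, folds of 2 and 1.5 stand in for a test, and intervals are exact binomial at 95%. Sequence words of 31 bases were counted in the GENCODE transcripts to see which genes share sequence. Calculations used Python 3.11.15. The ratio and interval steps were checked on simulated Poisson counts, which hold counting error only and no spread between cultures. All per-sample columns were matched (0 unmatched).

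Every library value is given for members at least 2-fold from control in any treatment, for a set of ATF4, DDIT3, ASNS, PHGDH, SHMT2, MTHFD2, SLC7A5 and SLC3A2, and for the extremes of each role; from other lists, the extremes with FSK and PMA. Some genes that this rule would name in the other lists are not reported here. The members and lists were chosen with earlier results of these data known. Alternatives were DESeq2 1.42.0 size factors, library totals, the authors' constants, a pseudocount of 10, other filters, coding transcripts alone, other reference libraries and the mean.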

Additional observations from a re-analysis of the deposited data

How the results depend on the processing

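Medians over members and counts past 2-fold were recomputed 92 times under the alternatives, and 79 of these values stayed close to the reported ones. The authors' constants, which do not bring the libraries to a common level and put the median of all genes at -0.16 (FSH), -0.16 (FSK), -0.28 (SC79) and -0.24 (PMA), gave member medians of -0.2253 with FSH, -0.5735 with FSK, -0.1922 with SC79 and -0.4948 with PMA. Relative to all genes those medians are -0.06, -0.42, 0.08 and -0.26. A scaling moves all genes of a library nearly alike, so these differences could not depart far from those with TMM. The count of members at least 2-fold higher with FSK was 1 under library totals, the authors' constants, protein-coding transcripts only and the FSH or SC79 library as reference. Members at least 2-fold lower with PMA numbered 6 under the authors' constants and 1 with the FSH library as reference. With 1.5-fold in place of 2-fold, 9 were lower with FSK and 7 with PMA. Among alternatives chosen after seeing the data, adding the rows without a name to PHGDH gave 5 members at least 2-fold lower with FSK and 4 with PMA, and keeping only the 30 members with at least 80% of their sequence words to themselves gave 3 and 2. Single-member ratios were recomputed 276 times, under DESeq2 size factors, library totals or with CBSL added to CBS. The largest move was 0.06 in log2. Of these ratios, 5 close to 0 changed sign. Moves this small could not change the sign of a ratio at least 2-fold from control. The authors' constants, which move ratios more, were not among these 276. Under library totals SARS with PMA changed sign to 0.0063, outside its counting interval of -0.102 to -0.0147. No paired analysis was possible because each group has 1 library. Pooling 3 cultures into 1 library leaves the spread between cultures unknown, so small differences such as those with FSH and SC79 may lie within it even where counting intervals exclude 1.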

Other observations

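The authors' deposited table also has a comparison with LH against control, for which no library was analysed here. Among the main transcripts of the members, the highest log2 fold changes with LH in the authors' deposited table are those of SLC3A2 at 1.88, DDIT3 at 1.74, WARS at 1.69, CEBPB at 1.63 and SESN2 at 1.26. The lowest in the authors' deposited table are PYCR1 at -1.32, ALDH18A1 at -1.21 and CHAC1 at -1.05. None of the 35 has an adjusted or an unadjusted p-value under 0.05 with LH in the authors' deposited table, and these values were not set against those of all transcripts. For the main transcript of PHGDH the authors' deposited table gives -1.92 with FSK and -1.90 with PMA.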
